A study of Homo sapiens with 40 samples.

Results

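The genes described here encode integrins, laminins and collagens, measured in BEAS-2B, a human cell line made from bronchial epithelium. They are the rows of the expression table whose symbol is ITGA or ITGB followed by a number or V, LAMA, LAMB or LAMC followed by a digit, or COL with the numbered form of a collagen chain. The rule found 52 of the 15788 genes: 26 collagen chains, 10 integrin alpha and 6 integrin beta subunits, and 5 alpha, 3 beta and 2 gamma chains of laminin. Confluent cells were kept in serum-free medium overnight and treated for 2 h, with 4 libraries in each of 10 groups (40 in all). One group received vehicle. Another received roflumilast N-oxide (RNO) at 1 uM, an inhibitor of the PDE4 enzymes that break down the second messenger cAMP. ONO-AE1-329 (ONO), an agonist of the prostaglandin receptor EP4, was given at 0.1 nM, 1 nM or 1 uM, and vilanterol, which activates the β2-adrenoceptor, at 100 nM. The last 4 groups received each of those agonist treatments together with RNO. All groups are from the same line, and the labels do not say whether replicates were separate cultures, so p-values measure the spread between these libraries, which may be technical.

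Integrins are cell surface receptors made of an alpha and a beta subunit, and they tie the cytoskeleton to the extracellular matrix. Laminins are trimers of an alpha, a beta and a gamma chain that, with type IV collagen networks, build the basement membrane under an epithelium, while fibrillar collagens such as types I, III and V form the fibres of the underlying tissue. In airway epithelium, integrins α3β1 and α6β4 bind laminin-332, and the α6β4 pair anchors basal cells through hemidesmosomes.

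Values are normalised TPM, a transcript abundance adjusted between libraries, which is scaled for transcript length, so levels of different genes can be set side by side. Column totals lay between 956888 and 1091466, and the depth of the libraries is unknown. The epithelial keratins KRT17, KRT8 and KRT18 averaged 706, 359 and 292 TPM, whereas EPCAM and CDH1, defining markers of epithelium, averaged 0.265 and 0.745 TPM. Of 8 mesenchymal markers in the table, VIM averaged 1306 TPM, THY1 84.6, PDGFRB 55.7, CDH2 38.0 and TWIST1 19.6 TPM, while ZEB1 averaged 1.28, FAP 0.340 and PDGFRA 0.0647 TPM, and all 8 summed to between 1491 and 1555 TPM by group. The 6 epithelial markers in the table summed to between 957 and 1949 TPM by group, a range that KRT17 led with 247 to 1510 TPM over single libraries. Of the 10 epithelial markers looked up, KRT5, KRT14, KRT19 and TP63 were absent from the table, and of the 10 mesenchymal markers DCN and LUM were absent. The 4 smooth muscle markers summed to between 47.3 and 61.3 TPM by group, most of it TAGLN, the 3 endothelial markers to between 0.501 and 0.703 TPM, and the 3 leukocyte markers, nearly all CD68, to between 12.7 and 14.3 TPM. The part of these markers in the results below was not tested, and fewer cells of a type and less RNA per cell cannot be told apart in such bulk libraries.

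COL1A1, the main chain of fibrillar type I collagen, was the most abundant member at 495 TPM, the mean of all 40 libraries. It made up 45.7% of the summed level of the 26 collagen genes, 1085 TPM. COL1A2, which joins COL1A1 in the usual type I trimer, averaged only 9.44 TPM, and the ratio of COL1A1 to COL1A2 was 53.0, between 43.1 and 66.4 in single libraries. The next collagens were COL8A1 at 112 TPM, the fibrillar chain COL5A2 at 110 TPM and COL12A1, a chain that coats collagen fibrils, at 99.9 TPM. COL3A1, the type III chain, averaged 1.496 TPM. The type VI chains COL6A1 and COL6A2, which assemble in the same trimer, averaged 14.4 and 13.5 TPM.

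All 6 chains of type IV collagen, the network collagen of basement membranes, were detected in each library. COL4A2 averaged 60.8 TPM and COL4A1 22.5 TPM, COL4A5 32.6 and COL4A6 12.9 TPM, and COL4A4 7.66 and COL4A3 3.38 TPM. The genes lie as head-to-head pairs on the genome, and the ratio within a pair varied little. COL4A2 over COL4A1 was 2.71 (range of the libraries 2.51 to 2.97), COL4A5 over COL4A6 was 2.52 (2.29 to 2.92) and COL4A4 over COL4A3 was 2.27 (1.97 to 2.51). The type VI ratio COL6A1 over COL6A2 was 1.07 (0.932 to 1.25), so a steady ratio was not particular to the type IV pairs. In RefSeq's promoter table (GRCh38.p14) the start sites of COL4A2 and COL4A1 were 127 bases apart, those of COL4A3 and COL4A4 419 and those of COL4A5 and COL4A6 380 bases apart. The 126 bases between the COL4A1 and COL4A2 start sites are the promoter DNA the most abundant pair shares, and are printed on the plus strand, chr13:110307158-110307283, with a CCAAT box and a GC box (GGGCGG) in capitals. CCAAT on either strand occurred in 34.6% and GGGCGG in 45% of all 300-base promoter windows in the table, which are longer than this stretch. Among windows of genes in the expression table GGGCGG occurred in 63.9%.
COL4A1 and COL4A2: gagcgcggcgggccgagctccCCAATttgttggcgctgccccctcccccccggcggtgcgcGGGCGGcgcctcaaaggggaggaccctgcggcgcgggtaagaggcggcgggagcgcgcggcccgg

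Of the integrins, the beta subunit ITGB1, the partner of most alpha chains, averaged 470 TPM and made up 90.1% of the beta sum. ITGA3, which with ITGB1 forms the laminin receptor α3β1, averaged 184 TPM and made up 58.9% of the alpha sum of 313 TPM. ITGA6 averaged 41.0 TPM and ITGB4, its hemidesmosome partner, 21.3 TPM. The alpha subunit of the RGD-binding integrins, ITGAV, averaged 29.3 TPM, the laminin-binding ITGA7 25.03 TPM and the fibronectin receptor subunit ITGA5 22.4 TPM. Among laminins, LAMB2, LAMB1 and LAMC1 averaged 59.2, 46.7 and 45.9 TPM. The alpha chains were scarcer, with a sum of 9.99 TPM over 5 genes, of which LAMA3 gave 6.21 TPM. LAMB3, a beta chain that joins LAMA3 in laminin-332, was also low at 3.17 TPM.

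Between groups the members moved little. For the 39 members with a mean of at least 1 TPM, the highest group mean over the lowest ranged from 1.06 (COL18A1) to 2.01 (COL3A1). The 13 other members, 6 collagens, 2 integrin alphas, 1 integrin beta and 4 laminins, lay under 1 TPM and were not tested. LAMA1, at 0.987 TPM, lay just under that limit and ITGA11, at 1.13 TPM, just above it.

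**Figure D1:**
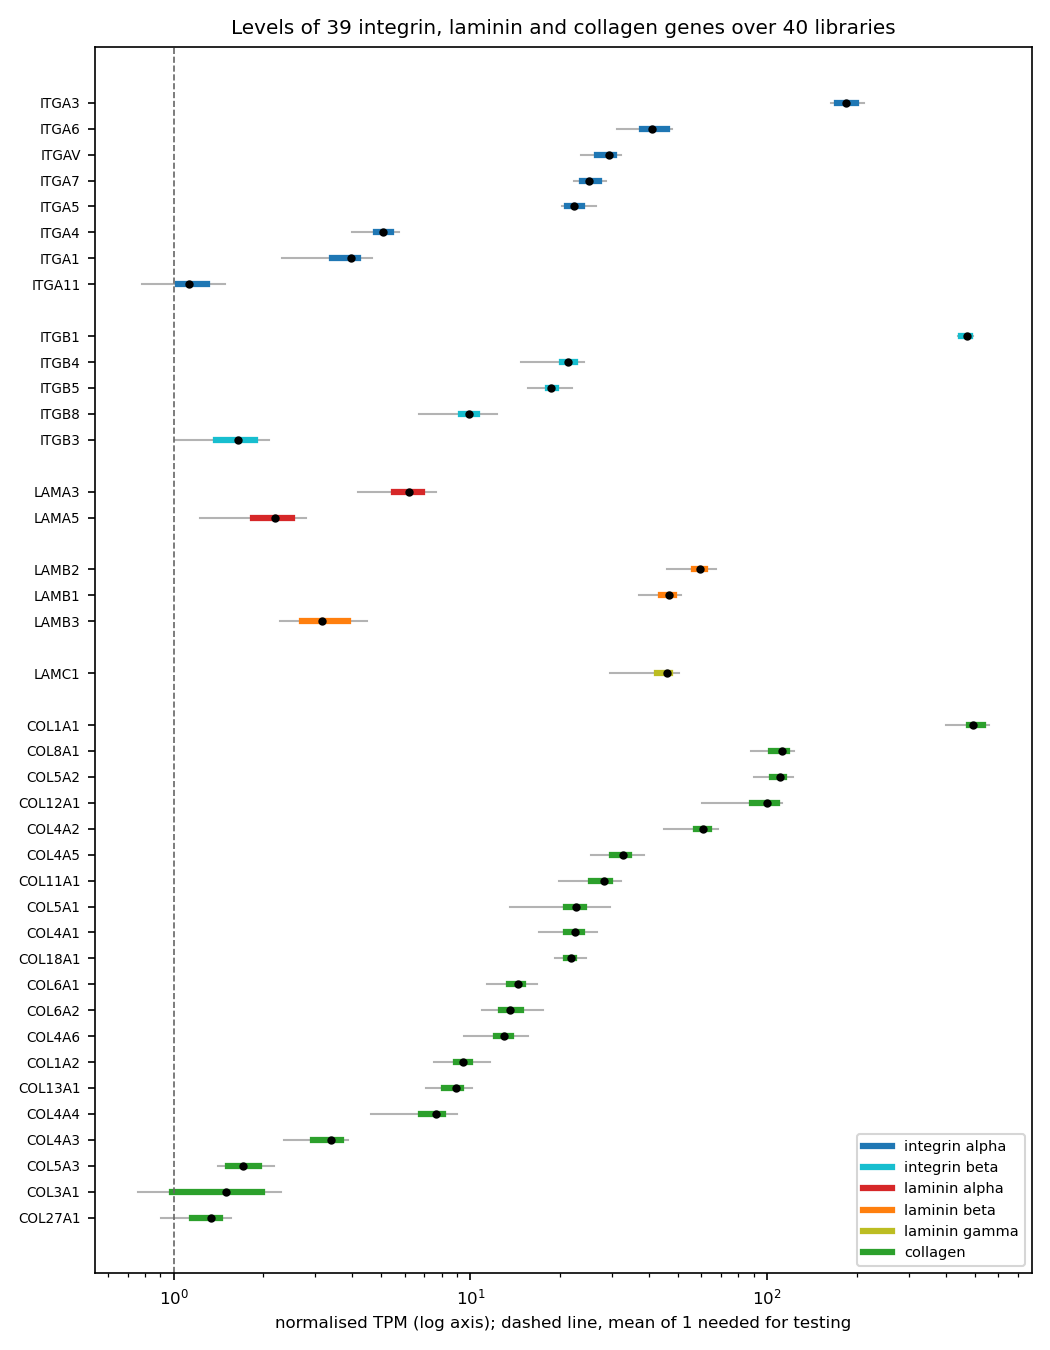
Level of each of the 39 members with a mean of at least 1 TPM, in normalised TPM on a log axis, grouped by family; black points are means of 40 libraries, coloured bars span the 10 group means and grey lines span single libraries. COL1A1, ITGB1 and ITGA3 are the 3 highest at 495, 470 and 184 TPM, and the coloured bars are short beside the spread between genes.

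One vehicle library stood apart for these genes. In vehicle replicate 3 the median deviation of the 39 tested members from the mean of the other 3 vehicle libraries was -0.302 on the log2 scale, while in the other 39 libraries the same measure lay between -0.091 and 0.195. Replicate 3 was the lowest vehicle library for 34 of the 39 members, against 37.8% of all genes tested, and the median deviation over all genes tested was -3e-04. Its deviations fell with transcript length (Spearman's rho across genes -0.586, against -0.300 to 0.413 in the other libraries). The members are long, with a median longest transcript of 6483 bases against 3605.5 for all genes tested, and 37 of 39 exceeded the latter. The counts of members called against vehicle are therefore given below with and without this library, each call of a member that is lost without it is named, and the part of transcript length in the results was not tested further.

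**Figure D2:**
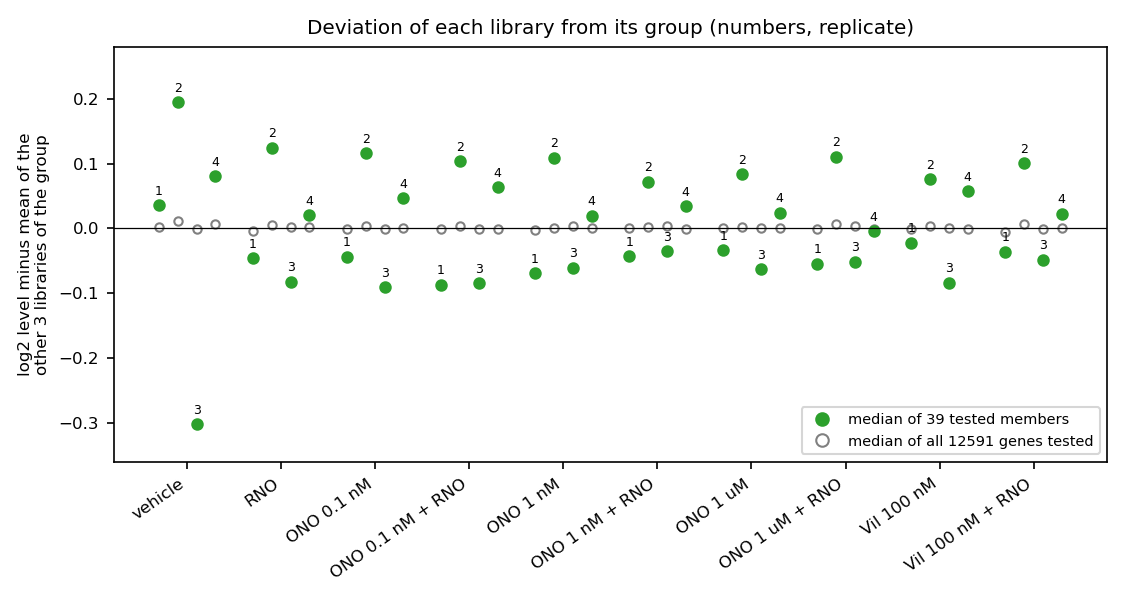
Deviation of each library from the mean of the other 3 libraries of its group, in log2 units, as the median over the 39 tested members (filled) and over all 12591 genes tested (open); small numbers are replicate numbers. Vehicle replicate 3 lies at -0.302 for the members, below every other library, while the open points lie near 0.

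Vilanterol at 100 nM raised 8 of the 39 tested members and lowered 1 (limma, Benjamini-Hochberg adjusted p under 0.05 over all 12591 genes). Over all genes 9.69% rose and 7.97% fell. COL3A1, LAMB3, LAMA5, COL12A1, COL4A3, ITGA6, ITGAV and ITGB1 rose and ITGA3 fell. Vilanterol with RNO raised 7 and lowered 2, where 10% and 8.44% of all genes rose and fell: COL3A1, COL12A1, LAMB3, ITGA6, LAMA5, COL4A3 and ITGB1 rose, ITGA3 and ITGA5 fell. ONO at 1 uM raised 5 and lowered 1 (4.19% and 3.02% of all genes): COL3A1, LAMA5, COL4A3, ITGAV and ITGB1 rose and ITGA3 fell. ONO at 1 uM with RNO raised 7 and lowered 2 (8.92% and 6.86%): COL3A1, LAMB3, COL12A1, ITGA6, COL4A3, ITGAV and ITGB1 rose, ITGA3 and ITGA7 fell. All 9 comparisons with vehicle use the same 4 vehicle libraries. When libraries were rescaled to equal totals, the split was 6 higher and 0 lower for vilanterol (8.8% of all genes higher and 6.66% lower) and for vilanterol with RNO (11% and 5.16%), and 1 higher and 1 lower for ONO at 1 uM (3.36% and 2.57%).

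Without vehicle replicate 3 the calls were fewer. They numbered 6 for vilanterol (4 higher, 2 lower), where 14.3% of all genes were called in either direction, 6 for vilanterol with RNO (4 higher, 2 lower, 14.9% of all genes), 3 for ONO at 1 uM (2 higher, 1 lower, 5.43%) and 5 for ONO at 1 uM with RNO (3 higher, 2 lower, 11.9%). The median log2 fold change of the 39 members with vilanterol was 0.15 with this library and 0.06 without it, beside -0.01 for all genes either way. Other single libraries also moved the counts. Vilanterol called 16 members without vehicle replicate 2 (21.5% of all genes in either direction), and vilanterol with RNO called 14 without vehicle replicate 1 (20.6%) and 15 without vehicle replicate 2 (22%). Without replicate 2 of the treated group, ONO at 1 uM called 3 (5.46%) and ONO at 1 uM with RNO 5 (12.1%).

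**Figure D3:**
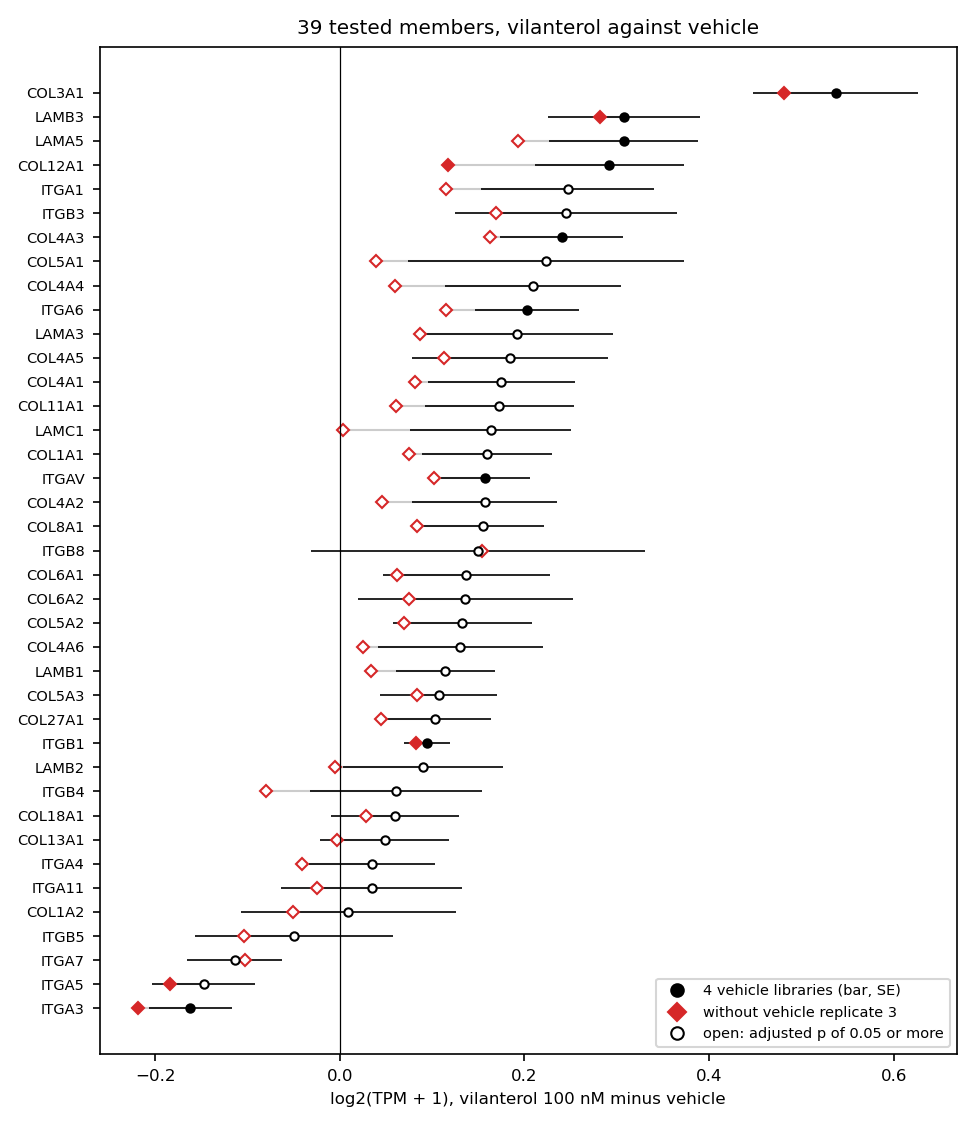
Log2 difference between vilanterol at 100 nM and vehicle, on the log2(TPM + 1) scale, for the 39 tested members; black circles with SE bars use 4 vehicle libraries, red diamonds leave out vehicle replicate 3, and filled symbols have an adjusted p under 0.05. Most diamonds lie to the left of their circles, and 6 diamonds are filled.

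Libraries with the same replicate number deviated together, and a model with the replicate number as a block called more members. For vilanterol it called 29 (26 higher, 3 lower; 31.2% of all genes), for vilanterol with RNO 26 (23 and 3; 32%), for ONO at 1 uM 17 (14 and 3; 16.6%) and for ONO at 1 uM with RNO 23 (20 and 3; 29.7%). With the block but without vehicle replicate 3, these counts were 20 (17 higher, 3 lower; 26.8% of all genes), 14 (11 and 3; 26.3%), 14 (10 and 4; 14.3%) and 11 (8 and 3; 23.1%). In that fit the collagens COL1A1, COL4A1, COL4A5, COL5A1, COL5A2, COL6A2, COL8A1 and COL11A1 and the integrin subunit ITGB3 were called higher, and ITGA5 and ITGA7 lower, with vilanterol beside the members named above. The log2 differences of these collagens in that fit were small, from 0.08 for COL5A2 and COL8A1 to 0.14 for COL4A5. Of the 34 calls made without the block, 33 held in it, and COL12A1 with ONO at 1 uM and RNO did not. COL1A1 was 481 ± 59.1 TPM in vehicle and 535 ± 29.4 TPM with vilanterol (SD, n = 4), 1.11-fold, with an adjusted p of 0.118 without the block and 0.00648 with the block and without replicate 3.

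ITGA3 fell, and its fall was larger without vehicle replicate 3. It stood at 197, 210, 177 and 212 TPM in vehicle and at 171, 173, 172 and 177 TPM with ONO at 1 uM. Only vehicle replicate 3 overlapped the treated libraries. The fold was 0.870 (log2 -0.20, SE 0.045, adjusted p = 0.00347), and 0.839 without that library (adjusted p = 5.07e-05). With vilanterol ITGA3 was 178, 175, 169 and 188 TPM, a fold of 0.892 (adjusted p = 0.00932), and leaving out vehicle replicate 4 gave an adjusted p of 0.0531 and leaving out vehicle replicate 3 gave 0.000173. After rescaling to equal totals it was 0.0611 for vilanterol and 0.116 for vilanterol with RNO. ITGA3 averaged 172 ± 7.74 TPM with ONO at 1 uM and RNO, and 177 ± 8.24 TPM with vilanterol and RNO (folds 0.863 and 0.890). Along the ONO doses it averaged 198 ± 8.49 TPM at 0.1 nM, 184 ± 2.21 TPM at 1 nM and 173 ± 2.74 TPM at 1 uM. At 1 nM the 4 libraries lay between 181 and 186 TPM, and the adjusted p was 0.284 with all vehicle libraries and 0.0458 without replicate 3.

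ITGA7 and ITGA5, which bind laminin and fibronectin, fell in 1 comparison each without the block. Neither gene was called there when libraries were rescaled to equal totals. With the block both were called lower with ONO at 1 uM and with vilanterol, each alone and with RNO, also without vehicle replicate 3 (adjusted p 0.00124 to 0.0409 for ITGA7 and 9.99e-05 to 0.00641 for ITGA5 without it). ITGA7 went from 24.3, 28.2, 27.7 and 28.4 TPM in vehicle to 22.7, 23.6, 24.1 and 24.9 TPM with ONO at 1 uM and RNO (fold 0.879, adjusted p = 0.0152). Vehicle replicate 1 overlapped the treated libraries. Without vehicle replicate 3 the adjusted p was 0.0470. Without the block, the call was lost without vehicle replicate 4 (adjusted p = 0.0568) and without treated replicate 1 (0.0573). ITGA5 went from 23.5, 26.4, 22.0 and 23.5 TPM to 20.3, 22.5, 20.7 and 21.3 TPM with vilanterol and RNO (fold 0.888, adjusted p = 0.0386). Each ITGA5 library lay below the vehicle library of the same number, but the groups overlapped, and the adjusted p without the block rose to 0.154 when vehicle replicate 2 was left out, to 0.0530 for vehicle replicate 4, and to 0.103, 0.0925 and 0.0606 for treated replicates 1, 3 and 4.

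ITGA6, the other main alpha subunit for laminin, rose while ITGA3 fell. In vehicle it was 42.1, 39.4, 31.1 and 38.3 TPM, and with vilanterol and RNO 47.7, 45.1, 47.6 and 43.9 TPM. Every treated library lay above every vehicle library. The fold was 1.22 (log2 0.29, SE 0.056, adjusted p = 0.000214), and 1.15 without vehicle replicate 3 (adjusted p = 0.00168). ONO at 1 uM and RNO gave 44.2 ± 0.701 TPM (fold 1.17, and 1.11 without replicate 3 with an adjusted p of 0.0340). With vilanterol alone it was 43.9, 43.5, 44.0 and 42.0 TPM, and its call (adjusted p = 0.00913) was lost without vehicle replicate 3 (adjusted p = 0.0951). With ONO at 1 uM alone ITGA6 was 42.9, 39.3, 41.8 and 39.4 TPM and was not called, with or without the block. The ratio of ITGA3 to ITGA6 was 5.31 ± 0.439 in vehicle, 4.10 ± 0.273 with vilanterol and 4.25 ± 0.242 with ONO at 1 uM. The vehicle ratio includes replicate 3, where ITGA6 was 31.1 TPM. ITGB4, the partner of ITGA6 in hemidesmosomes, was 21.7, 23.6, 14.8 and 21.6 TPM in vehicle and 20.8, 22.8, 19.5 and 21.2 TPM with vilanterol (adjusted p = 0.712).

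ITGB1, the shared beta subunit, rose by a small margin that exceeded the spread. Vehicle libraries held 457, 452, 438 and 447 TPM and vilanterol libraries 474, 495, 480 and 468 TPM. The groups did not overlap, and the fold was 1.07 (log2 0.09, SE 0.025, adjusted p = 0.00580), 1.06 without vehicle replicate 3 (adjusted p = 0.0191). Its level with ONO was 457 ± 7.08 TPM at 0.1 nM, 471 ± 8.37 TPM at 1 nM and 481 ± 11.3 TPM at 1 uM. The call at ONO 1 uM (adjusted p = 0.00691) was 0.0226 without replicate 3. After rescaling to equal totals the adjusted p of ITGB1 was 0.0596 for vilanterol and 0.121 for ONO at 1 uM. In vilanterol with RNO (fold 1.05, adjusted p = 0.0328) the call was lost when any 1 of 4 libraries was left out (vehicle replicates 3 and 4, treated replicates 2 and 3), with adjusted p between 0.0592 and 0.133. ITGAV rose in 3 comparisons, and each call was lost without vehicle replicate 3 and also after rescaling to equal totals. With ONO at 1 uM it was 29.3, 32.2, 30.3 and 30.1 TPM against 27.2, 28.0, 23.6 and 27.9 TPM in vehicle. These groups did not overlap (fold 1.14, adjusted p = 0.0102), and without vehicle replicate 3 the fold was 1.10 (adjusted p = 0.0928). Leaving out treated replicate 2 gave an adjusted p of 0.0587 for ONO at 1 uM, 0.133 for ONO at 1 uM with RNO and 0.0967 for vilanterol.

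LAMB3, the beta chain of laminin-332, rose. It was 3.22, 2.99, 2.72 and 2.80 TPM in vehicle and 4.48, 3.797, 3.86 and 3.38 TPM with vilanterol. The groups did not overlap. The fold was 1.32 (log2 0.31, SE 0.083, adjusted p = 0.00699), and 1.29 without vehicle replicate 3 (adjusted p = 0.0287). With vilanterol and RNO it was 3.83 ± 0.349 TPM (fold 1.31, adjusted p = 0.00925, 0.0361 without replicate 3). With ONO at 1 uM alone it was 3.36, 2.96, 3.38 and 2.71 TPM and was not called. With ONO at 1 uM and RNO it was 4.02, 3.90, 3.59 and 3.40 TPM, above every library of ONO at 1 uM alone. Against vehicle that call (adjusted p = 0.0238) was lost without vehicle replicates 3 or 4 and without treated replicates 1 or 2 (adjusted p 0.0585 to 0.0793). LAMA3, the alpha chain of that laminin, averaged 5.52 ± 1.08 TPM in vehicle and 6.40 ± 0.856 TPM with vilanterol, and was not called (adjusted p = 0.212). With the block it was called (0.0106), and with the block and without vehicle replicate 3 it was not (0.104). With vilanterol and RNO LAMA3 was 6.10, 7.64, 6.52 and 7.11 TPM. There it was called higher with the block, with and without vehicle replicate 3, but not without the block.

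LAMA5, an alpha chain of basement membrane laminins, was 1.996, 1.996, 1.22 and 2.19 TPM in vehicle and 2.58, 2.80, 2.16 and 2.47 TPM with vilanterol. The groups overlapped in 1 library each. The fold was 1.35 (adjusted p = 0.00555), and 1.22 without vehicle replicate 3 (adjusted p = 0.0599). Its calls with ONO at 1 uM and with vilanterol and RNO were lost without that library too (adjusted p 0.359 and 0.245). They were also lost without any single ONO 1 uM library (0.0606 to 0.138) and without treated replicates 1 or 2 of vilanterol with RNO (0.0768 and 0.0787). The LAMA5 call with ONO at 1 uM was lost after rescaling to equal totals as well.

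COL3A1, a fibrillar collagen chain at low level, rose with vilanterol by the largest fold of the 39 members tested. Vehicle libraries held 0.918, 1.19, 0.818 and 1.28 TPM and vilanterol libraries 2.24, 1.67, 1.72 and 2.29 TPM. All treated libraries lay above all vehicle libraries. The means were 1.05 ± 0.220 and 1.98 ± 0.332 TPM, a fold of 1.88 (log2 0.54 on the log2(TPM + 1) scale, which understates the change of such a low gene, SE 0.089, adjusted p = 2.23e-05). Without vehicle replicate 3 the fold was 1.75 (adjusted p = 0.000283). COL3A1 with ONO at 1 uM was 1.95, 1.66, 1.52 and 1.67 TPM (fold 1.62, adjusted p = 0.00257, and 0.0205 without replicate 3). With ONO at 1 uM and RNO it was 1.84 ± 0.225 TPM and with vilanterol and RNO 1.92 ± 0.240 TPM. Along the ONO doses it averaged 0.984 ± 0.202 TPM at 0.1 nM, 1.38 ± 0.0444 TPM at 1 nM and 1.70 ± 0.182 TPM at 1 uM. The libraries at 1 nM, between 1.34 and 1.43 TPM, lay above all 4 vehicle libraries. COL3A1 was not called at that dose alone, with or without the block and with or without vehicle replicate 3. With ONO at 1 nM and RNO it was 1.67, 1.49, 1.23 and 1.69 TPM, and was not called against vehicle without the block. There it was called higher with the block, with and without vehicle replicate 3, with a pseudocount of 0.1 and with equal totals. COL3A1 kept its calls without each of the 8 libraries of a comparison, with adjusted p up to 0.0205.

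COL12A1 was 98.6, 98.1, 60.1 and 98.2 TPM in vehicle and 103, 110, 109 and 105 TPM with vilanterol. The treated libraries lay above the vehicle libraries, and vehicle replicate 3 alone set the wide vehicle SD of 19.1 TPM. The fold was 1.20 with this library (adjusted p = 0.00932) and 1.08 without it (adjusted p = 0.0221). With vilanterol and RNO it was 108 ± 3.79 TPM, a fold of 1.10 without the library (adjusted p = 0.00611). ONO at 1 uM and RNO gave 104 ± 2.33 TPM, and the call (adjusted p = 0.0268) was lost without vehicle replicate 3 (fold 1.06, adjusted p = 0.157, and 0.0774 with the block) and without treated replicate 2 (0.0738). COL4A3 rose from 3.19, 3.35, 2.35 and 2.92 TPM in vehicle to 3.62, 3.75, 3.42 and 3.81 TPM with vilanterol (fold 1.24, adjusted p = 0.00924). Those groups did not overlap, and without vehicle replicate 3 the fold was 1.16 (adjusted p = 0.0840). None of its 4 calls held without that library, and with the block and without it all 4 did (adjusted p 0.00138 to 0.0205). After rescaling to equal totals the COL4A3 calls with ONO at 1 uM and with vilanterol and RNO were lost. The call with ONO at 1 uM was also lost without vehicle replicate 4 or treated replicates 1, 2 or 4 (0.0615 to 0.0980), that with ONO at 1 uM and RNO without treated replicate 2 (0.0824), and that with vilanterol and RNO without vehicle replicate 4 or treated replicates 1, 2 or 4 (0.0516 to 0.180). Its head-to-head neighbour COL4A4 was 6.80 ± 1.49 TPM in vehicle and 7.89 ± 0.611 TPM with vilanterol (adjusted p = 0.132). COL4A1 was 21.0 ± 2.99 and 23.7 ± 1.37 TPM (adjusted p = 0.132) and COL4A2 57.6 ± 9.22 and 63.8 ± 4.14 TPM (adjusted p = 0.174). With the block the adjusted p was 0.00890 for COL4A4, 0.00183 for COL4A1 and 0.00790 for COL4A2, and without vehicle replicate 3 as well it was 0.0847, 0.00687 and 0.0640. With vilanterol and RNO, the block called COL4A4 and COL4A1 higher with and without that library, and COL4A2 only with it.

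**Figure D4:**
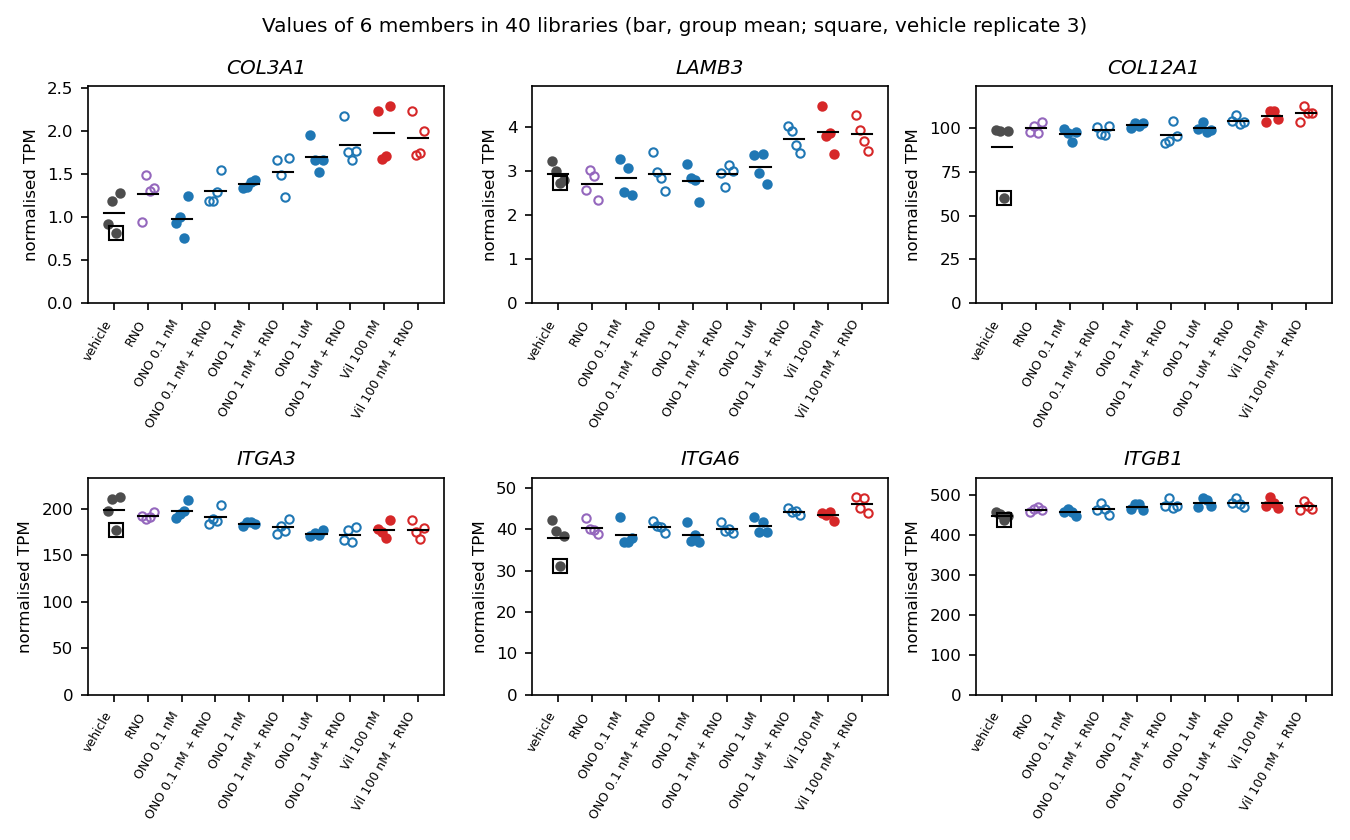
Normalised TPM of 6 members in all 40 libraries by group; filled points are groups without RNO and open points groups with RNO, bars are group means and the square marks vehicle replicate 3. Group means of COL3A1 and LAMB3 are highest with vilanterol, that of ITGA6 with vilanterol and RNO, and ITGA3 is lowest in the ONO 1 uM groups, and COL12A1 of vehicle replicate 3 lies at 60.1 TPM.

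The lower doses and RNO alone gave few calls. RNO called 0 of 39 members (0.238% of all genes), with 6 at an unadjusted p under 0.05 (12.3% of all genes); the block called 6 (5.11% of all genes) and, without vehicle replicate 3, 3 (ITGAV, COL8A1 and COL11A1, all higher; 2% of all genes). ONO at 0.1 nM called 0 (0% of all genes) with 3 at an unadjusted p under 0.05 (5.85%), and 0 with the block, with or without vehicle replicate 3 (0.0794% and 0.0318% of all genes). ONO at 0.1 nM with RNO called 0 (1.12%) with 9 at an unadjusted p under 0.05 (11.2%). The block called 1 there (COL8A1, higher; 5.12%), and without replicate 3 it called 1 (ITGA3, lower; 3.43%). ONO at 1 nM called 0 (1.01%), with 11 at an unadjusted p under 0.05 (13.4%). The block called 13 for that dose (8.47%), and without replicate 3 it called 5, ITGA3 lower and COL11A1, ITGB1, COL8A1 and COL4A5 higher (4.86%). Without the block, ONO at 1 nM with RNO raised ITGB1 alone (2.18% of all genes rose and 1.27% fell). That call (adjusted p = 0.0338) was lost without vehicle replicates 3 or 4 or treated replicates 1, 2 or 4 (0.0512 to 0.17). It was lost after rescaling to equal totals too. Without vehicle replicate 3, 1 member was called, ITGA3 lower (3.14% of all genes, adjusted p = 0.00240). The block called 7 there (10% of all genes), in the comparison where same-numbered libraries did not all correlate above 0.1. Without replicate 3 the block called 6 (10.4%), COL3A1, COL8A1 and ITGB1 higher and ITGA3, ITGA5 and ITGA7 lower.

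Adding RNO to an agonist called no member without the block: 0 of 39 for ONO at 0.1 nM (0.723% of all genes), at 1 nM (0.238%), at 1 uM (0.604%) and for vilanterol (0%), by limma. At an unadjusted p under 0.05 there were 1, 0, 1 and 0 members (5.49%, 4.41%, 7.73% and 1.43% of all genes). With the block the counts were 0 (2.58%), 0 (1.2%), 1 (3.69%) and 0 (0%). With the block and without vehicle replicate 3, an alternative added after the data were seen, they were 1 (ITGB8, higher; 3.79%), 1 (LAMB2, lower; 2.68%), 2 (ITGA6 and LAMB3, higher; 6.66%) and 0 (0%). LAMB3 was called with the block either way, and stood at 3.10 ± 0.326 TPM with ONO at 1 uM and at 3.73 ± 0.283 TPM with RNO added. Every library with RNO lay above those without it (fold 1.20, adjusted p = 0.446 without the block and 0.0368 with it). The 95% intervals of the log2 difference reached from -0.37 to 0.51 over the members and the 4 additions, so changes of that size were not resolved for the most variable members.

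The receptor agonists at ONO 1 uM and vilanterol 100 nM were compared directly, at doses that differ. Without the block, limma called 0 of 39 members (2.14% of all genes) and 1 had an unadjusted p under 0.05 (10.4%). The block called 2, LAMB3 and COL1A1, both lower with ONO (6.8% of all genes). The block without vehicle replicate 3, added after the data were seen, called 6, all lower with ONO: COL12A1, COL4A1, ITGA6 and ITGB8 beside those 2 (10.3%). LAMB3 was 3.10 ± 0.326 TPM with ONO and 3.88 ± 0.456 TPM with vilanterol (adjusted p = 0.131, and 0.00456 with the block). COL1A1 was 489 ± 28.8 TPM with ONO and 535 ± 29.4 TPM with vilanterol (adjusted p = 0.557, and 0.0178 with the block). ITGA3, at 173 ± 2.74 and 178 ± 8.01 TPM, was not called between the agonists.

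Of the 52 members, 39 had a promoter in the RefSeq table, with 52 start sites. Among the 11 members called without the block, 8 had one. COL3A1, ITGA3 and ITGA7 had none, so the motif counts do not cover them. The palindromic cAMP response element TGACGTCA is the site of CREB, the transcription factor that cAMP signalling activates. It was in 0 of the 52 windows of 300 bases, against 1.85% of the table's 35116 windows. Among windows of genes in the expression table it was in 2.65%. With shares that low, 0 of 52 does not set the members apart. The core of this element, TGACG on either strand, was found for 11 of 39 member genes (28.2%). That compares with 28.4% of all genes of the promoter table and 39% of those in the expression table. The AP-1 site TGANTCA was found for 3 of 39 (7.69%, against 9.37% of all genes and 7.29% of those in the expression table). GGGCGG was found for 29 of 39 (74.4%, against 48.3% of all genes and 74.4% of those in the expression table). The palindrome contains the core. The called members with the core were LAMB3, ITGA6, ITGB1 and LAMA5, and the 250 bases before their start sites are printed on the gene's own strand with TGACG or its complement CGTCA in capitals. LAMB3 has the core at -128 and -112 (first letter, counted from its start site), ITGA6 at -37, ITGB1 at -197 and LAMA5 at -43. The LAMB3 stretch is chr1:209652426-209652675 (minus strand), the ITGA6 stretch chr2:172427336-172427585 (plus), the ITGB1 stretch chr10:32958231-32958480 (minus) and the LAMA5 stretch chr20:62367313-62367562 (minus), all in GRCh38.p14. LAMB3, ITGA6 and ITGB1 have other start sites in the table, which are not printed.
LAMB3: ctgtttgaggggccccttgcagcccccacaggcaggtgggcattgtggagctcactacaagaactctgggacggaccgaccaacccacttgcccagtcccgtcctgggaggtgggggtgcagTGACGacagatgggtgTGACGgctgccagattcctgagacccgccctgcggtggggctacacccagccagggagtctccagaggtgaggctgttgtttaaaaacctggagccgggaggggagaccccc
ITGA6: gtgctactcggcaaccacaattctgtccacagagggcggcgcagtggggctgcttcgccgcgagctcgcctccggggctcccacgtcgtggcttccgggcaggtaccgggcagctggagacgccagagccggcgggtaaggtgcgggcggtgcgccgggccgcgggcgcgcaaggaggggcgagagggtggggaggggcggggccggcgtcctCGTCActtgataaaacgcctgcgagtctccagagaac
ITGB1: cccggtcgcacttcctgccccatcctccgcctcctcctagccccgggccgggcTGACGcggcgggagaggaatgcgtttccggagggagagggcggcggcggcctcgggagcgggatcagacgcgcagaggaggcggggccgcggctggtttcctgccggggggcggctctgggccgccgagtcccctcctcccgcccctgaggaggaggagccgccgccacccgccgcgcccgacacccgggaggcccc
LAMA5: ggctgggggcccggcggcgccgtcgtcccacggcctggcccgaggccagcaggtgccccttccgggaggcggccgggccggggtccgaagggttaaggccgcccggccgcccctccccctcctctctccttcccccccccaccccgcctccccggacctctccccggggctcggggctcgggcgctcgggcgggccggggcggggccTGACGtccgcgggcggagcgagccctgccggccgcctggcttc

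Genes that work with the members were counted in 4 lists, to be read beside the shares of all genes tested. With vilanterol 9.69% rose and 7.97% fell, and with vilanterol and RNO 10% and 8.44%. With ONO at 1 uM 4.19% rose and 3.02% fell, and with RNO added 8.92% and 6.86%. Without vehicle replicate 3, 14.3%, 14.9%, 5.43% and 11.9% were called in either direction, in that order. Of 31 tested integrin activators and focal adhesion adaptors, 3 rose and 3 fell with vilanterol, 3 and 2 with vilanterol and RNO, 1 and 2 with ONO at 1 uM, and 2 and 2 with ONO at 1 uM and RNO. These were, without vehicle replicate 3, 1 and 6, 1 and 6, 0 and 3, and 1 and 4. FERMT2, the integrin activator kindlin-2, rose from 52.03 ± 2.06 to 68.5 ± 2.83 TPM with vilanterol (fold 1.32, adjusted p = 1.54e-07, and 2.05e-06 without vehicle replicate 3). BCAR1, an adaptor that carries signals from integrins, fell from 57.0 ± 4.16 to 44.4 ± 1.93 TPM (fold 0.778, adjusted p = 8.98e-06, and 4.41e-06 without replicate 3). NEDD9, an adaptor of the same family as BCAR1, rose 1.56-fold (adjusted p = 0.00635), and the adjusted p was 0.0602 without replicate 3 and 4.55e-08 without it but with the block. The focal adhesion protein TNS1 rose too (fold 1.18, adjusted p = 0.0309, and 0.275 without replicate 3). ZYX and PXN, adaptors at focal adhesions, fell (folds 0.930 and 0.868, adjusted p = 0.0361 and 0.0444, and 0.0150 and 0.0476 without replicate 3).

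Of 24 tested matrix glycoproteins and proteoglycans, 3 rose and 0 fell with vilanterol, alone or with RNO, and 2 rose and 0 fell with ONO at 1 uM, alone or with RNO. Leaving out vehicle replicate 3, 2 rose in each of these except ONO at 1 uM alone, where 1 did. THBS2, a matricellular thrombospondin, rose from 18.4 ± 2.67 to 25.03 ± 0.707 TPM with vilanterol (fold 1.36, adjusted p = 7.40e-07). It rose with ONO at 1 uM (adjusted p = 0.0276, but 0.238 without replicate 3 and 0.0770 with the block as well), and was lower with ONO at 1 uM than with vilanterol (21.2 ± 0.716 TPM, adjusted p = 0.0280). NTN4, a netrin that binds laminin networks, rose from 100 ± 4.95 to 120 ± 2.84 TPM (fold 1.19, adjusted p = 1.90e-07, and 1.79e-06 without replicate 3). AGRN, the proteoglycan agrin, rose 1.09-fold (adjusted p = 0.0469, 0.370 without replicate 3, and 0.0414 without it but with the block). Of 23 tested collagen synthesis and crosslinking enzymes, 3 rose and 0 fell with vilanterol and 2 rose in each of the other 3. Without vehicle replicate 3, 2 rose with vilanterol, alone or with RNO, and 1 with ONO at 1 uM, alone or with RNO. PLOD2, a lysyl hydroxylase for collagen crosslinks, rose from 124 ± 5.64 to 150 ± 4.79 TPM with vilanterol (fold 1.21, adjusted p = 6.07e-08, and 5.30e-07 without replicate 3). P3H1 and CRTAP, partners in collagen prolyl 3-hydroxylation, rose by small folds, 1.095 and 1.07 (adjusted p = 0.0255 and 0.00629), and without replicate 3 the adjusted p was 0.0656 and 0.0394 (0.00509 and 0.00469 with the block as well). Of 12 tested hemidesmosome plaque proteins and other matrix receptors, 1 rose with vilanterol and RNO (DST, adjusted p = 0.0405, 0.390 without replicate 3, and 0.0128 without it but with the block), and none was called in the other 3 comparisons. The median log2 fold changes of these lists with vilanterol were 0.01, 0.12, 0.03 and 0.06, beside -0.01 over all genes tested. Without vehicle replicate 3 they were -0.02, 0.05, 0.01 and -0.004, beside -0.01 over all genes. The lists are described by these counts alone.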

How the data were processed

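RNA of 40 BEAS-2B libraries was measured by directional poly(A) sequencing on a NextSeq instrument. Groups, doses and replicate numbers come from the sample labels. The authors deposited a table of normalised signal per gene on the TPM scale, 1 column per library. Per the submitters' processing notes the tools were bcl2fastq 2.18.0.12, kallisto and sleuth with GRCh37 and hg19. The versions of kallisto and sleuth, the annotation and the form of the adjustment between libraries are not stated in the sources used here. Column totals were not equal. Estimates for chains that share sequence depend on how reads were assigned to transcripts.

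Values were analysed as log2(value + 1) with limma 3.58.1 in R 4.3.3 (moderated variances with an intensity trend), with 1 mean per group over all 40 libraries and 30 residual degrees of freedom. The 12591 genes averaging 1 TPM or more were tested, and calls have a Benjamini-Hochberg adjusted p under 0.05 over them. There were 14 comparisons: 9 with vehicle, 4 of an agonist with RNO against the agonist, and ONO at 1 uM against vilanterol. Folds are ratios of mean TPM, and levels are mean ± SD of 4 libraries. Same-numbered libraries correlated above 0.1 in every pair (deviations from group means) in 13 of 14 comparisons (range 0.020 to 0.542; the exception was ONO at 1 nM with RNO against vehicle), so the numbers were taken to pair the libraries in those 13, and a fit with the replicate number as a block is given as an alternative. Other alternatives were a pseudocount of 0.1, no filter, rescaling to equal totals or by median ratios, leaving out each library, and the block without vehicle replicate 3. The script was tested on simulated data.

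The members, lists and tests were chosen with earlier results of these data known. Named members are those called in at least 1 comparison, the main chains of each family, of laminin-332 and of type IV collagen, and the chief integrin partners; other members are named for their level, or for a call under the block, after their values were seen. At most 3 called genes per list and direction are named. Transcript lengths are the longest in GENCODE v29, and promoters (250 bases before to 50 after the start site) are RefSeq's; both are on GRCh38, not the build named by the submitters, and no other coordinates are given. Symbols were matched as deposited. The values of 1 member are not reported here. Figures were drawn with matplotlib 3.10.9.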

Additional observations from a re-analysis of the deposited data

Results flagged for a closer look

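The 11 members called in at least 1 comparison were examined in each of 10 groups of 4 libraries, 110 groups in all, for a library whose gap to its nearest neighbour was large for the group's range (Dixon's test, 95% critical value). Chance alone gives about 1 such group in 20, and 4 were found. COL12A1 was 60.1 TPM in vehicle replicate 3, against 98.1 to 98.6 TPM in the other 3 vehicle libraries. ITGA7 was 24.3 TPM in vehicle replicate 1, against 27.7 to 28.4 TPM in the others. ITGA6 was 42.9 TPM in replicate 1 of ONO at 0.1 nM, against 37.0 to 37.8 TPM. COL4A3 was 3.22 TPM in replicate 3 of ONO at 1 uM, against 3.68 to 3.78 TPM. The first of these is the library that lay below the mean of the other vehicle libraries for 37 of the 39 tested members.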

How the results depend on the processing

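The 34 calls of members kept their direction under every alternative run. All 34 held with a pseudocount of 0.1, with median ratios and with the replicate block, 32 without the filter, 21 with equal totals and 33 with the block without vehicle replicate 3. Over 272 combinations of a call and 1 left-out library of its comparison, the call was lost in 52: 15 without vehicle replicate 3 and 8 without vehicle replicate 4. Rescaling moved the median of all genes by at most 0.04 log2.

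Counts of members called changed as follows. With the replicate block they were 6 for RNO (5.11% of all genes), 1 for ONO 0.1 nM with RNO (5.12%), 13 for ONO 1 nM (8.47%) and 7 for ONO 1 nM with RNO (10%). The block called 17 for ONO 1 uM (16.6%), 23 for ONO 1 uM with RNO (29.7%), 29 for vilanterol (31.2%) and 26 for vilanterol with RNO (32%). It called 1 for RNO added to ONO 1 uM (3.69%) and 2 for ONO 1 uM against vilanterol (6.8%). With the block without vehicle replicate 3 they were 3, 1, 5, 6, 14, 11, 20 and 14 for the first 8 of these in the same order. The shares of all genes there were 2%, 3.43%, 4.86%, 10.4%, 14.3%, 23.1%, 26.8% and 26.3%. This fit was also run, after the data were seen, in comparisons that hold no vehicle library. For RNO added it called 1 to ONO 0.1 nM (3.79% of all genes), 1 to ONO 1 nM (2.68%), 2 to ONO 1 uM (6.66%) and 0 to vilanterol (0%). For ONO 1 uM against vilanterol it called 6 (10.3%). With a pseudocount of 0.1 ONO 1 nM with RNO called 2, and with equal totals ONO 1 uM called 2 (3.36% of all genes rose and 2.57% fell). Leaving out 1 library gave 0 to 1 calls for ONO 1 nM, 0 to 2 for ONO 1 nM with RNO, 3 to 7 for ONO 1 uM, 5 to 11 for ONO 1 uM with RNO, 6 to 16 for vilanterol and 6 to 15 for vilanterol with RNO. For vilanterol, 14.3% of all genes were called without vehicle replicate 3 and 21.5% without vehicle replicate 2 (14.9% and 22% with RNO). Without vehicle replicate 3, the shares were 0.731% for ONO 1 nM, 3.14% with RNO added, 5.43% for ONO 1 uM and 11.9% with RNO added. Where no share of all genes is given, as for the pseudocount and most left-out libraries, the counts of members have no background to be read against. With the block the 4 related lists called 11, 12, 5 and 3 genes for vilanterol, in the order of the report, 14, 8, 8 and 5 for vilanterol with RNO, 8, 4, 3 and 2 for ONO 1 uM and 10, 8, 8 and 6 for ONO 1 uM with RNO. The block called 31.2%, 32%, 16.6% and 29.7% of all genes in these comparisons, in that order. For ONO 1 nM with RNO against vehicle the pairing is a hint from the data only, since 6 of 8 libraries correlated best with their own number. The cause of these changes was not tested. Depth is unknown, so no counting error is given, and small changes of members near 1 TPM were not resolvable.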
